A study of Homo sapiens with 4 samples.

Results

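The tubulin genes were described in Reh-6MPR cells, a line of human Reh B-cell acute lymphoblastic leukemia cells made resistant to 6-mercaptopurine (6-MP), a thiopurine drug. The 10 genes named by symbol were TUBA1A, TUBA1B and TUBA1C for alpha-tubulin, TUBB, TUBB2A, TUBB2B, TUBB3, TUBB4B and TUBB6 for beta-tubulin, and TUBG1 for gamma-tubulin. Of these, 9 had a row among the 29833 genes measured, and TUBB3 was not analysed here. The genes were taken by symbol and by no expression value, but they were chosen with earlier results of these data known. An average of 1 FPKM or more, the limit for counting a fold change, was met by 12750 genes and by 7 of the 9 tubulin genes. TUBB2B and TUBB6 were under it.

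The 4 libraries, 1 for each treatment, came from cells kept for 48 h with PBS (vehicle), with histidine at 4 mM, with 6-MP at 1.0 μg/mL, or with both agents (combined treatment). All 4 are of the same resistant line, labelled WT in genotype, so the parental Reh cells are in no comparison. Values are FPKM, the reads of a gene per length of the gene and per depth of the library. The totals behind them ranged from 12899122 reads, in the combined library, to 15486376, in the histidine library. With 1 library per treatment there is no replicate check, and no p-value can be given. Intervals are 95% intervals on the reads recovered from the FPKM steps: exact Poisson for a level, exact Clopper-Pearson for a ratio of libraries, and Wald, a normal approximation, for additivity and for a gene set against another gene. They cover counting error only and compare libraries, not treatments.

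Alpha- and beta-tubulin pair into the dimer from which microtubules are built, and gamma-tubulin sits in the ring complex that starts new microtubules. Microtubules form the mitotic spindle, and dividing leukemia cells are killed by vincristine, which binds tubulin. Cells also tune tubulin mRNA to the amount of free dimer: as a new chain leaves the ribosome, the factor TTC5 reads its first residues, MREC in most alpha- and MREI in most beta-tubulins, and with SCAPER and the CCR4-NOT complex it has the mRNA degraded. The first 4 codons of 5 members are shown because this is the stretch that is read. They were taken from GENCODE 29 on GRCh38, with the last codon shown in capitals.
TUBA1B: atgcgtgagTGC
TUBB: atgagggaaATC
TUBB4B: atgagggaaATC
TUBB2A: atgcgcgagATC
TUBG1: atgccgaggGAA
TUBA1A and TUBA1C begin with the same 12 bases as TUBA1B, whose capital codon is cysteine. The beta genes have isoleucine there, and gamma-tubulin begins differently.

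The alpha- and beta-tubulin isotypes differ most at the other end, the acidic tail that lies on the outside of the microtubule. The last 12 codons of 5 members are shown, with the codon of the last residue in capitals. Those of the alpha and beta genes shown tell apart genes that are otherwise nearly alike. TUBG1 is given for comparison, and its end is not such an acidic tail.
TUBA1C: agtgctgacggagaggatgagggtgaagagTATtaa
TUBB: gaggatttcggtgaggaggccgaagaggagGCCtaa
TUBB4B: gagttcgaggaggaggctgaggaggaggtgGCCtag
TUBB2A: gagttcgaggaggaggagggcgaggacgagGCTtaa
TUBG1: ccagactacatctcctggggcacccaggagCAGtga
TUBA1C ends in tyrosine, the residue of alpha-tubulin that is removed and added back in the detyrosination cycle. Over the whole protein TUBA1A and TUBA1B were 99.6% identical, TUBA1A and TUBA1C 98.0%, TUBB and TUBB4B 97.5%, and TUBA1B and TUBB 42.1%.

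This likeness bears on the counts. Of the 50-base words of the transcript, 62.7% in TUBA1B, 41.7% in TUBA1A, 25.1% in TUBA1C, 65.5% in TUBB2A, 29.9% in TUBG1, 18.2% in TUBB, 9.89% in TUBB4B and 0.993% in TUBB6 also occur in a transcript of another gene. How reads that fit several genes were shared out is not given in the sources used here, so the values of TUBA1A, TUBA1B and TUBA1C apart from each other, and of TUBB2A apart from TUBB2B, are uncertain. Introns included, TUBA1A and TUBA1C also overlap by 345 bases on opposite strands. So do TUBG1 and RETREG3, by 983 bases, and TUBB6 and AFG3L2, by 15377 bases. In vehicle RETREG3 had 10.2 FPKM and AFG3L2 12.5. The library kit marks strand, but whether the counting used it is not stated.

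In the vehicle library the most abundant tubulin gene per length was TUBB4B, followed by TUBB, TUBA1B, TUBA1A, TUBA1C, TUBG1, TUBB2A, TUBB6 and TUBB2B. The order was the same in all 4 libraries, and no neighbours in it had overlapping 95% counting intervals in any library. It depends on the gene lengths behind the FPKM: by reads in vehicle, TUBB was above TUBB4B, at 6828 against 6495. TUBB4B ranked 114 among the 12750 genes tested in vehicle and 152 with the combined treatment, and TUBB ranked 246 and 396. The main pattern was a lower level of TUBB, TUBB4B, TUBA1B and TUBA1C with the combined treatment than in each of the other 3 libraries, while TUBA1A and TUBG1, in the values as deposited, were within counting error of vehicle and the sparse TUBB2A was higher.

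TUBA1B encodes the main alpha-tubulin of dividing cells and lies at chr12:49127782-49131397 on the minus strand (GRCh38). Its FPKM was 94.1 in vehicle, 83.8 with histidine, 88.3 with 6-MP and 68.0 under the combined treatment, from 4815, 4640, 4843 and 3135 reads. The combined library was the lowest, and the intervals of the other 3 libraries lay above its own. The level with the combined treatment was 0.723 times that of vehicle. On the log2(FPKM + 1) scale, used for all fold changes and known to understate those of low genes, the differences of the combined treatment were -0.46 from vehicle, -0.30 from histidine and -0.37 from 6-MP. The interval of the read ratio to vehicle was -0.53 to -0.40 on the log2 scale.

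TUBA1C, another alpha-tubulin gene of many tissues, lies at chr12:49188736-49274600 on the plus strand. Its FPKM was 27.6 in vehicle, 27.4 with histidine, 25.0 with 6-MP and 15.5 under the combined treatment, from 1758, 1891, 1707 and 892 reads. The combined library stood clear below the other 3. The level was 0.563 times that of vehicle, the lowest such ratio of any tubulin gene tested. The log2 differences were -0.79 from vehicle, -0.78 from histidine and -0.65 from 6-MP, and the read ratio to vehicle had an interval of -0.95 to -0.71.

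TUBA1A, the alpha-tubulin gene that is best known from developing neurons, lies near TUBA1B at chr12:49184686-49189080 on the minus strand. Its FPKM was 56.3 in vehicle, 52.3 with histidine, 55.2 with 6-MP and 55.0 under the combined treatment, from 3082, 3094, 3236 and 2713 reads. Here the histidine library was the lowest, and the combined library lay among the others. The log2 difference of the combined treatment was -0.03 from vehicle, with a read interval of -0.11 to 0.04, and 0.07 from histidine, with a read interval of -0.00076 to 0.15. Scaling by the median ratio set all of these lower, to -0.27 from vehicle and -0.13 from histidine.

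As the reads were assigned, the alpha genes therefore differed from each other within the same libraries, a contrast that no scaling of the library can change. It could change with how reads that fit several of these genes were shared out, which the intervals do not cover. Between the vehicle and combined libraries, the log2 read ratio of TUBA1C was lower than that of TUBA1A by a difference of -0.79 (95% interval -0.93 to -0.66). For TUBA1B against TUBA1A the difference was -0.44 (-0.53 to -0.34), and for TUBA1C against TUBA1B it was -0.36 (-0.49 to -0.23). In the histidine library, the difference of TUBA1C from TUBA1A was 0.10 (-0.02 to 0.22), and in the 6-MP library it was -0.11 (-0.23 to 0.0068).

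**Figure D1:**
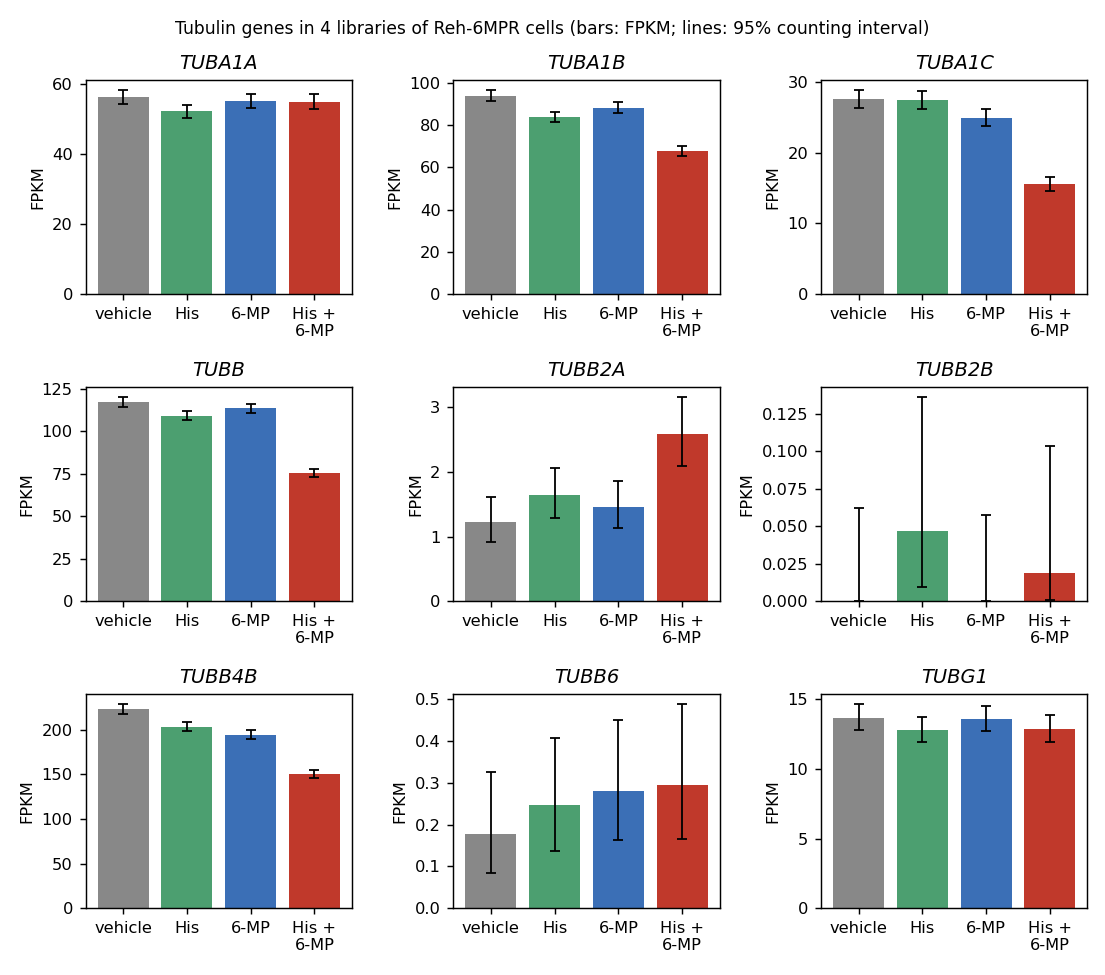
FPKM (vertical axes, each from 0 and to its own scale) of the 9 tubulin genes with a row, by library (horizontal axes: vehicle, His for histidine, 6-MP, and both). Each bar is 1 library and each line its 95% Poisson interval, counting error only. The combined bar is the lowest for TUBA1B, TUBA1C, TUBB and TUBB4B, at 68.0, 15.5, 75.2 and 150 FPKM, and the highest for TUBB2A at 2.59.

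TUBB4B, a beta-tubulin of most tissues that is also abundant in cilia, lies at chr9:137241287-137243707 on the plus strand. Its FPKM was 223 in vehicle, 203 with histidine, 194 with 6-MP and 150 under the combined treatment, from 6495, 6413, 6066 and 3954 reads. Every treated library was below vehicle, and the combined library was the lowest. The level with the combined treatment was 0.676 times that of vehicle. The log2 differences were -0.56 from vehicle, -0.43 from histidine and -0.37 from 6-MP, with a read interval of -0.62 to -0.51 against vehicle.

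TUBB, the beta-tubulin of dividing cells in general, lies at chr6:30717435-30725538 on the plus strand. Its FPKM was 117 in vehicle, 109 with histidine, 113 with 6-MP and 75.2 under the combined treatment, from 6828, 6869, 7087 and 3948 reads. The first 3 libraries were close together and the combined one was far below them, at 0.642 times the vehicle level. The log2 differences were -0.63 from vehicle, -0.53 from histidine and -0.59 from 6-MP, with a read interval of -0.70 to -0.58 against vehicle. TUBBP1, a processed pseudogene that holds 16.1% of the 50-base words of TUBB, had 21.7, 18.4, 18.7 and 16.0 FPKM in vehicle, histidine, 6-MP and the combined treatment, so it was lowest in the same library.

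TUBB2A, a beta-tubulin typical of neurons, lies at chr6:3153497-3157544 on the minus strand and went the other way. Its FPKM was 1.23 in vehicle, 1.64 with histidine, 1.46 with 6-MP and 2.59 under the combined treatment, from only 51, 74, 65 and 97 reads. The combined library was the highest, and its counting interval, 2.10 to 3.16 FPKM, lay above those of the other 3. The log2 difference from vehicle was 0.69, while the log2 read ratio was 1.08 with an interval of 0.57 to 1.60. Its differences from histidine and from 6-MP were 0.44 and 0.55. The share of TUBB2A in the summed beta-tubulin FPKM was 0.359% in vehicle and 1.13% with the combined treatment, so this gene hardly entered the sum.

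TUBB2B and TUBB6 were barely detected. TUBB2B, a near copy of TUBB2A with 99.6% of its residues, was at 0 reads in vehicle and with 6-MP, 3 with histidine and 1 with the combined treatment, all at or under the floor of 3 reads, and no fold is given. TUBB6, a more divergent beta-tubulin, had 0.177, 0.246, 0.281 and 0.295 FPKM in vehicle, histidine, 6-MP and the combined treatment, from 10, 15, 17 and 15 reads. Its read intervals included 0 in all comparisons, and at this depth no difference was detectable.

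TUBG1, the gamma-tubulin of the ring complex, lies at chr17:42609641-42615238 on the plus strand. Its FPKM was 13.7 in vehicle, 12.8 with histidine, 13.5 with 6-MP and 12.9 under the combined treatment, from 844, 855, 897 and 717 reads. These values overlapped in their counting intervals. The log2 differences of the combined treatment were -0.08 from vehicle, 0.01 from histidine and -0.07 from 6-MP, and under median-ratio scaling they were -0.30, -0.18 and -0.29. Relative to TUBB in the same libraries, TUBG1 was higher by 0.56 (0.40 to 0.71) on the log2 scale with the combined treatment than in vehicle.

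**Figure D2:**
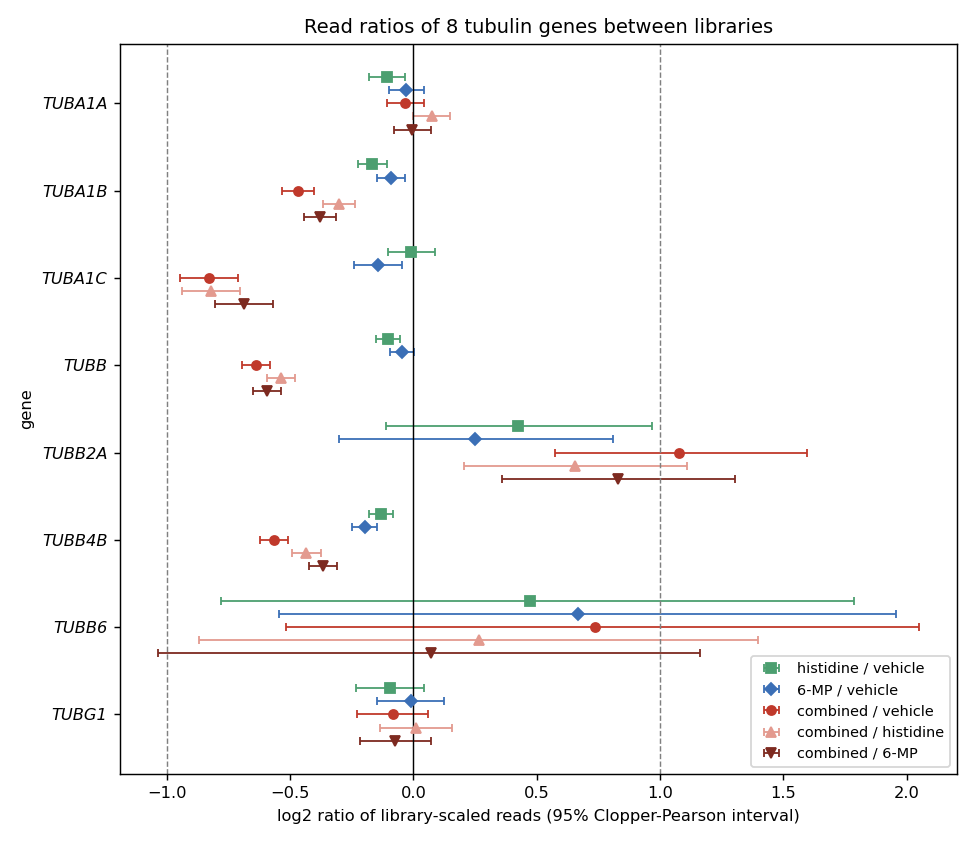
Log2 ratio of library-scaled reads (horizontal axis) for 8 tubulin genes (vertical axis) in 5 comparisons of libraries, with 95% Clopper-Pearson intervals; dashed lines mark 1 and -1. All 3 comparisons of the combined library lie below 0 for TUBA1B, TUBA1C, TUBB and TUBB4B and above 0 for TUBB2A, while those of TUBA1A, TUBB6 and TUBG1 include 0.

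The study set its fold threshold at an absolute log2 value of 1 or more. No tubulin gene met that size: the count was 0 of 7 for histidine against vehicle, where 1.33% of all genes tested did, and 0 of 7 for 6-MP against vehicle, where 1.18% did. It was likewise 0 of 7 for the combined treatment against vehicle, histidine and 6-MP, beside 6.53%, 5.55% and 6.02% of all genes. A smaller step, at least 0.5 below each of the other 3 libraries, was met in the combined library by 2 of 7 genes, TUBA1C and TUBB, and by 4.53% of all genes. Under median-ratio scaling, which lowers the whole combined library, TUBB4B met it too, which made 3. The share of all genes was not counted under that scaling. At least 0.5 above each of the others were 0 of 7, where 13.0% of all genes were. No tubulin gene was set apart in this way in the vehicle, histidine or 6-MP library.

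By counting error alone, 4 of 7 tubulin genes were lower with the combined treatment in each comparison, where 20.8% of all genes were lower against vehicle, 22.1% against histidine and 21.2% against 6-MP. The genes were TUBA1B, TUBA1C, TUBB and TUBB4B each time. On the other side stood 1 of 7, TUBB2A, while 42.7%, 41.2% and 42.2% of all genes were higher against vehicle, histidine and 6-MP. These 3 comparisons share the combined library and are not independent. The median log2 difference from vehicle was -0.46 over the 7 tubulin genes and 0.13 over all genes. Against histidine these medians were -0.30 and 0.11, and against 6-MP -0.37 and 0.13. Abundant genes did not have this upward median: over the 4676 genes averaging 10 FPKM or more, the median against vehicle was 0.0094, and 95% of these genes lay within 0.90 of 0. The most abundant genes leaned lower: over the 746 genes averaging 50 FPKM or more, the median against vehicle was -0.19, and 58.2% had a read interval below 0. Of the 4 tubulin genes at that level, TUBB, TUBB4B and TUBA1B did and TUBA1A did not, so a lower read ratio was common at their abundance.

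**Figure D3:**
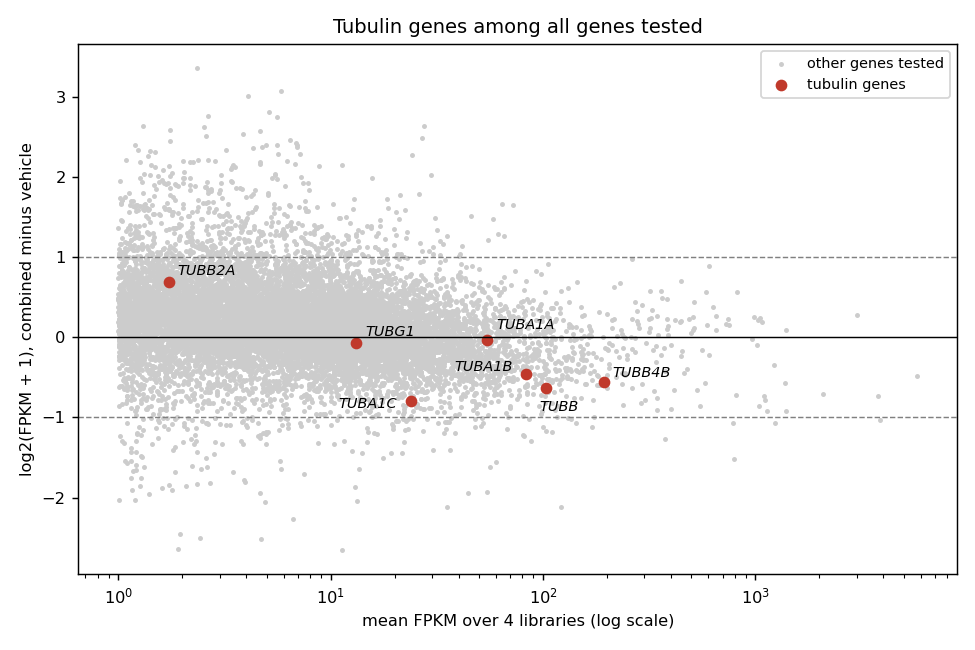
Difference of log2(FPKM + 1) between the combined and vehicle libraries (vertical axis; dashed lines at 1 and -1) against mean FPKM over the 4 libraries (horizontal log axis), for the 12750 genes tested (grey) and 7 tubulin genes (red). TUBA1C, TUBB, TUBB4B and TUBA1B lie between -0.79 and -0.46, TUBG1 and TUBA1A near 0, and TUBB2A at 0.69.

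The single agents gave smaller differences. With histidine, 4 of 7 tubulin genes, TUBA1A, TUBA1B, TUBB and TUBB4B, had a read ratio to vehicle whose interval lay below 0, as did 8.72% of all genes, and 0 of 7 lay above 0, as 12.9% did. Of the 746 genes averaging 50 FPKM or more, as these 4 genes do, 30.4% lay below 0. Their log2 differences were between -0.16 for TUBA1B and -0.10 for TUBB. With 6-MP, 3 of 7 genes were below 0, TUBA1B, TUBA1C and TUBB4B, as were 7.92% of all genes, and 0 of 7 were above, as were 10.0%. Of those 746 genes, 22.1% were below 0 with 6-MP. The furthest was TUBB4B at -0.20. For comparison, 95% of the genes averaging 10 FPKM or more lay within 0.24 of 0 with histidine and within 0.22 with 6-MP, and the differences of the abundant tubulin genes were inside these ranges. Over the 746 genes averaging 50 FPKM or more the ranges were 0.18 and 0.19, and TUBB4B with 6-MP lay just outside.

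Whether the combined treatment differed from the sum of the single agents was read from the log2 values of the 4 libraries: combined minus histidine, minus 6-MP, plus vehicle. It was -0.64 for TUBA1C, -0.48 for TUBB, -0.23 for TUBB4B and -0.21 for TUBA1B. The counting intervals of these 4 of 7 genes lay below 0, as did those of 19.8% of all genes. TUBA1A was at 0.10 (0.0007 to 0.21 on the reads), a value that turned to -0.091 under median-ratio scaling and to -0.020 under that scaling over the genes tested. TUBG1 was at 0.02 and TUBB2A at 0.30, the last with an interval of -0.28 to 1.09. A departure of at least 1 was reached by 0 of 7 tubulin genes and by 6.76% of all genes. The median was -0.21 over the tubulin genes and 0.11 over all genes.

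Summed over the 3 genes, alpha-tubulin reached 178 FPKM in vehicle, 163.5 with histidine, 168 with 6-MP and 138.5 under the combined treatment. Summed over the 5 genes with a row, beta-tubulin reached 341, 314, 309 and 229 FPKM in the same order. Both sums were the lowest with the combined treatment, and the log2 difference from vehicle was -0.36 for alpha and -0.58 for beta. Only the named genes are in these sums. TUBB4A, at 18.4 FPKM in vehicle and 15.6 with the combined treatment, and TUBA4A, at 11.2 and 14.0, are outside them. The beta sum was 1.92 times the alpha sum in vehicle, 1.92 with histidine, 1.84 with 6-MP and 1.65 under the combined treatment. The size of this ratio depends on the gene lengths behind the FPKM, 3574 bases for TUBA1B and 2037 for TUBB4B. The transcripts used for their sequences were 1627 and 1637 bases long. In reads, the vehicle sums were 9655 for alpha and 13384 for beta. The reads of all 9 genes came to 1668 RPM (reads scaled by library depth) in vehicle, 1540 with histidine, 1559 with 6-MP and 1199 under the combined treatment. In bulk samples, fewer cells of a type and less RNA per cell cannot be told apart.

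As the reads were assigned, the make-up of the alpha sum shifted, while that of the beta sum did so less. TUBA1A made up 31.6% of the alpha-tubulin FPKM in vehicle, 32.0% with histidine, 32.7% with 6-MP and 39.7% under the combined treatment. TUBA1C made up 15.5%, 16.8%, 14.8% and 11.2%, and TUBA1B 52.9%, 51.3%, 52.4% and 49.1%. Of the beta-tubulin FPKM, TUBB4B made up 65.3%, 64.7%, 62.8% and 65.8%, and TUBB 34.3%, 34.7%, 36.7% and 32.9%. Between vehicle and the combined treatment, TUBB and TUBB4B kept their ratio to within counting error, with a log2 difference of -0.07 (-0.15 to 0.0060). Between histidine and the combined treatment the difference was -0.10 (-0.18 to -0.02), and between 6-MP and the combined treatment it was -0.23 (-0.31 to -0.15).

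**Figure D4:**
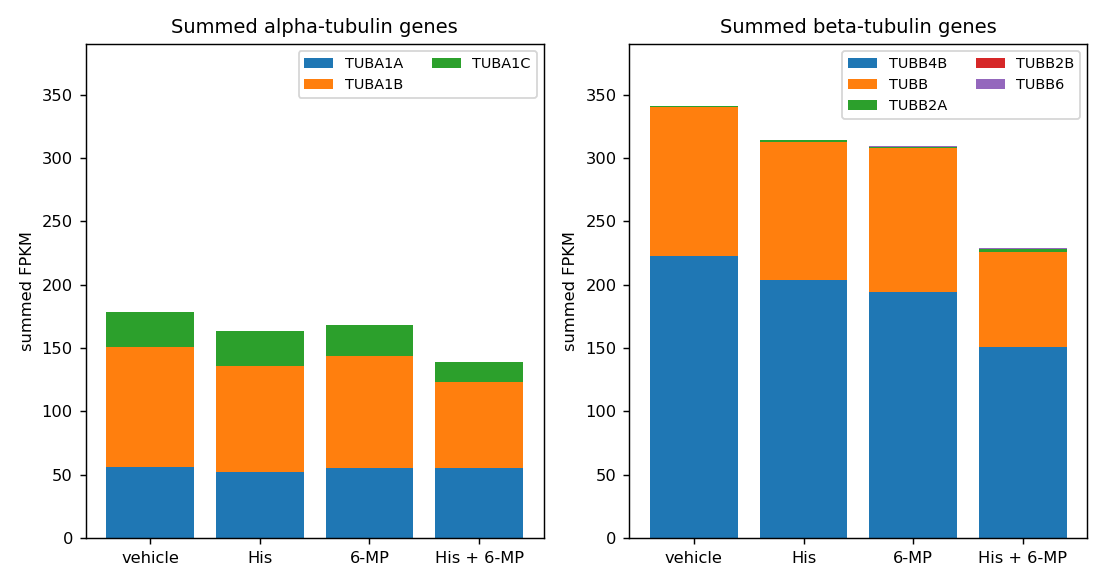
Summed FPKM (vertical axes, from 0, same scale) of the alpha-tubulin genes (left) and beta-tubulin genes (right) by library, with 1 colour per gene. The alpha sum goes from 178 in vehicle to 138.5 with the combined treatment and the beta sum from 341 to 229, with TUBA1A of almost the same height in all 4 bars.

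Of the 13 other human tubulin genes listed, 11 had a row and 6 were tested, and none passed the fold threshold in a comparison of the combined treatment. Their median against vehicle was 0.05. The most abundant, TUBB4A, a beta-tubulin known from brain, had 18.4, 19.0, 17.9 and 15.6 FPKM in vehicle, histidine, 6-MP and the combined treatment, a log2 difference from vehicle of -0.23. TUBG2 was at 7.90, 7.88, 7.51 and 13.2 FPKM, a difference of 0.67. It is the near copy of TUBG1 and shares 29.1% of the 50-base words of TUBG1, and it is named after its values were seen. TUBA4A was at 11.2, 10.4, 8.83 and 14.0 FPKM, a difference of 0.30, and is likewise named after its values were seen.

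The chaperonin CCT, a ring of 8 subunits, folds new tubulin and actin. All 8 subunit genes were lower with the combined treatment than in each of the other libraries, with read intervals below 0 in all 3 comparisons. At their abundance this was common: of the 746 genes averaging 50 FPKM or more, 58.2% had such an interval against vehicle, 57.6% against histidine and 59.4% against 6-MP. Their median log2 difference was -0.57 from vehicle, -0.51 from histidine and -0.54 from 6-MP, beside 0.13, 0.11 and 0.13 over all genes and -0.19, -0.18 and -0.19 over those 746 genes. CCT5 was the 1 gene of this list past the threshold, at 97.5 FPKM in vehicle, 90.7 with histidine, 92.6 with 6-MP and 41.4 under the combined treatment. Its differences were -1.22, -1.11 and -1.14 from vehicle, histidine and 6-MP. CCT7, the most abundant, had 205, 198, 201 and 135 FPKM, a difference of -0.60 from vehicle. With the single agents the list medians were -0.05 for histidine and -0.02 for 6-MP.

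Prefoldin hands unfolded tubulin to CCT. Its 6 subunit genes lay on both sides of 0: the median difference from vehicle was -0.07, 0 passed the threshold, and the values ran from -0.72 to 0.72. PFDN2, the most abundant, was the lowest, at 111 FPKM in vehicle, 101 with histidine, 110 with 6-MP and 67.2 under the combined treatment. The cofactors that assemble the folded chains into the dimer were spread in the same way, with 6 of 7 tested, a median of -0.02 and 0 past the threshold. The most abundant of them, TBCA, which binds beta-tubulin, had 41.3, 42.4, 42.4 and 44.9 FPKM.

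The 4 genes of tubulin autoregulation, TTC5, SCAPER, CNOT1 and CNOT11, had a median difference of -0.22 from vehicle, and 0 passed the threshold. CNOT1, the scaffold of the CCR4-NOT deadenylase and the most abundant, had 54.3, 52.3, 54.1 and 38.5 FPKM in vehicle, histidine, 6-MP and the combined treatment, a difference of -0.49. TTC5 itself was at 3.34, 3.28, 3.43 and 3.01 FPKM, and its read intervals included 0 in all 3 comparisons of the combined treatment. Only mRNA was measured, so no value bears on tubulin protein or on free dimer.

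The other genes of the gamma-tubulin ring complex had a median of -0.01, 0 of 9 past the threshold and values from -0.36 to 0.35. MZT2A, a small subunit and the most abundant, had 25.1, 26.6, 26.7 and 32.2 FPKM. The stathmins, which bind free dimers, had 2 genes tested, with differences of -0.43 and -0.48 from vehicle. STMN1, also known as a leukemia-associated phosphoprotein, had 190, 181, 183 and 141 FPKM.

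Of 9 tested genes for microtubule plus-end and lattice proteins, 0 passed the threshold, and the median difference from vehicle was -0.01. TPX2, a spindle assembly factor and the most abundant, had 133, 132, 125 and 88.6 FPKM, a difference of -0.58. The 9 tested genes for depolymerising kinesins and severing enzymes had a median of 0.08 and 0 past the threshold. KIF2C, the kinesin that removes tubulin from microtubule ends and the most abundant, had 48.1, 46.3, 43.7 and 45.7 FPKM. Of 13 tested genes for tubulin modifying enzymes, 0 passed the threshold, and the median was 0.09. TTLL12, a member of the tubulin tyrosine ligase-like family and the most abundant, had 27.1, 28.4, 30.6 and 14.8 FPKM, a difference of -0.83 from vehicle.

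**Figure D5:**
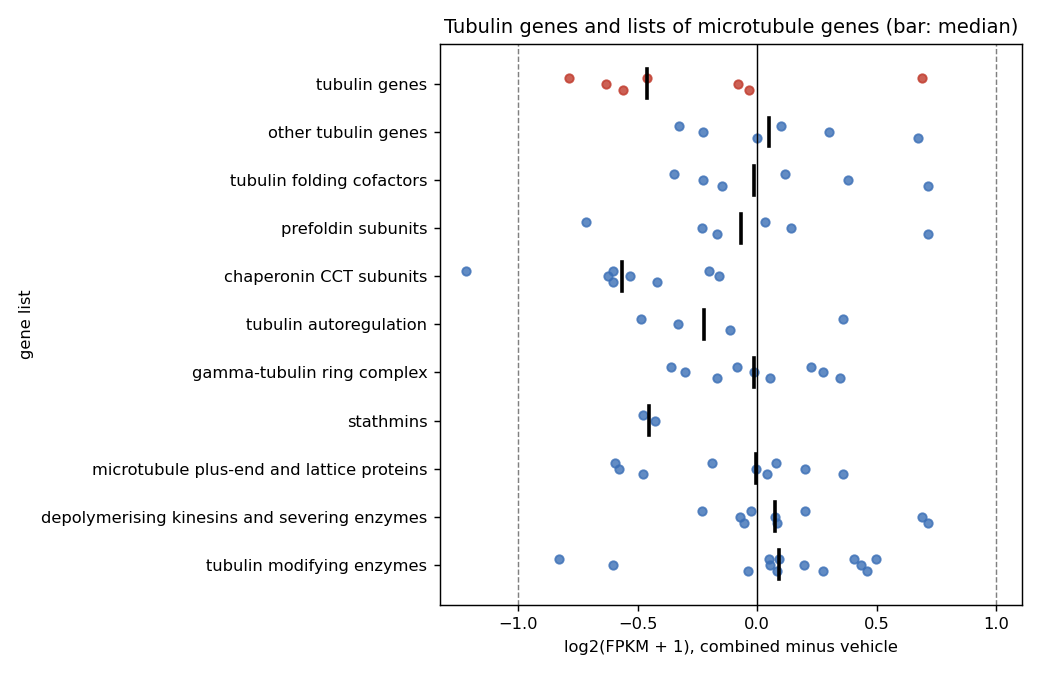
Difference of log2(FPKM + 1) between the combined and vehicle libraries (horizontal axis; dashed lines at 1 and -1) for each tested gene (points) of the tubulin genes (red) and of 10 lists of microtubule genes (blue), with the median of each list as a black bar. The CCT subunits, at a median of -0.57, all lie below 0, and CCT5 at -1.22 is the 1 gene past the threshold in these lists.

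The genes whose pattern over the treated libraries was nearest to that of the most abundant alpha-tubulin gene, TUBA1B, and the most abundant beta-tubulin gene, TUBB4B, were looked for among 4368 protein-coding genes averaging 10 FPKM or more. Likeness was the Euclidean distance over the 3 log2 differences from vehicle. For TUBA1B the 5 nearest were NQO2, NDUFA8, SZRD1, MRPL36 and TIMM8B, at distances of 0.021 to 0.051. NQO2, a quinone reductase, had 17.9 FPKM in vehicle, 15.9 with histidine, 16.5 with 6-MP and 12.6 under the combined treatment. For TUBB4B they were STK26, PID1, ARPC5L, PSME1 and TIMM17A, at 0.034 to 0.061. STK26, a kinase, had 55.6, 50.2, 49.3 and 36.9 FPKM in the same order. With 3 differences from 1 vehicle library each, these distances describe the libraries.

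The labelled cell type was checked against markers. Of 10 B-lineage markers, 9 had a row, all 9 were tested, and their summed FPKM ranged from 1325 to 1425 over the libraries. Of 5 T cell markers 1 had a row and of 5 erythroid markers 3, with summed FPKM of at most 0.103 and 0.492. Of 6 myeloid markers 5 had a row, and their summed FPKM was 32.0 in vehicle, 34.3 with histidine, 30.1 with 6-MP and 62.9 under the combined treatment, mostly from MPO and ITGAM. ITGAM had 3.14 FPKM in vehicle and 19.2 under the combined treatment, a log2 difference of 2.28. MPO had 27.7 and 41.0 FPKM, CSF1R 0.624 and 1.25, and LYZ 0.324 and 1.39. CD14 went the other way, from 0.17 to 0.047 FPKM, on at most 4 reads. The part of this myeloid shift in the tubulin values was not tested.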

How the data were processed

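Per the labels, Trizol RNA of Reh-6MPR cells was made into stranded poly(A) libraries. The submitters' processing notes name Trimmomatic, HISAT2, Cufflinks, HTSeq and GRCh38 (hg38), without versions. The authors deposited FPKM values for 29833 genes, and 0 columns of the table lacked a sample. Within a gene FPKM steps by what 1 read is worth, and whole reads came out for 29830 genes (distance from whole at most 0.0003). Where the length found was a fraction of the annotated one, it was multiplied by up to 6 (1450 genes, tolerance 15%). The totals were 99.97% to 99.996% of the denominators.

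Differences of log2(FPKM + 1) were counted for genes averaging 1 FPKM or more, at an absolute value of at least 1. DESeq2, which the study used, was not repeated, since each treatment has 1 library. The tubulin genes and the gene lists were chosen with earlier results of these data known. Named were all tubulin genes, in each list the most abundant member and every member past the threshold in a comparison of the combined treatment, and the 5 genes nearest to TUBA1B and to TUBB4B. Sequences and identities came from 1 transcript per gene of GENCODE 29 (GRCh38), in which 28905 gene identifiers were found. The alternatives were a pseudocount of 0.1, other filters, thresholds of 0.5 and 1.5, TPM and median-ratio scaling, protein-coding genes only, and summed reads of near-identical genes. The scripts, tested on simulated data, used numpy 2.4.6, scipy 1.17.1, pandas 2.3.3 and matplotlib 3.10.9 under Python 3.11.15.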

Additional observations from a re-analysis of the deposited data

How the results depend on the processing

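No paired analysis was possible because there is 1 library for each treatment, and for the same reason no replicate could be left out. Of the values and counts recomputed, 618 were rated the same, 84 moved and 2 reversed. A reversal was a change of sign in a value whose counting interval excluded 0. Other changes of sign, as for TUBA1A and TUBG1 against histidine under median-ratio scaling, were rated by their size only. A value was the same if within its counting error, and a count if equal or close. Many of the 618 were counts of 0 that stayed 0. Values without a finite interval, as in most comparisons of TUBB2B, could not move. Both reversals were for the departure of TUBA1A from additivity. It was -0.091 under median-ratio scaling and -0.020 under the same scaling over genes averaging 1 FPKM or more, an alternative chosen after seeing the data. Median-ratio scaling lowers the combined library by 0.24 on the log2 scale against vehicle (0.16 in the added form). The count of tubulin genes past the threshold against vehicle was 0, but 1 with a pseudocount of 0.1 (TUBB2A, 1.02), 1 with median-ratio scaling (TUBA1C, -1.02) and 4 at a threshold of 0.5. Over all genes these counts were 1513 of 12750, 733 of 12687 and 3451 of 12750. The 4 tubulin genes at 0.5 were TUBA1C, TUBB and TUBB4B, which were lower, and TUBB2A, which was higher. At the threshold of 0.5 the tubulin count was 2 against histidine and 3 against 6-MP, beside 3234 and 3341 of the 12750 genes tested. TUBA1C and TUBB were lower in both of these comparisons, and TUBB2A was higher against 6-MP. For additivity the tubulin count was 1, and the count over all genes was not taken. Set apart below the others were 3 genes in place of 2 under both forms of median-ratio scaling. Set apart above the others was 1 gene with a pseudocount of 0.1 and 1 with TPM scaling. The share of all genes set apart was not counted under these alternatives. The alpha sum of the combined treatment against vehicle, histidine and 6-MP was -0.60, -0.44 and -0.51 with median-ratio scaling, -0.51, -0.37 and -0.43 in the added form, and -0.25, -0.17 and -0.18 without TUBA1B, which also set histidine against vehicle at -0.073. The beta sum was -0.82, -0.66 and -0.67 with median-ratio scaling and -0.73, -0.59 and -0.58 in the added form; without TUBB4B it was -0.50 against histidine and -0.56 against 6-MP, with 6-MP against vehicle at -0.041. Histidine against vehicle was -0.16 for the beta sum with median-ratio scaling. With the reads of TUBA1A, TUBA1B and TUBA1C summed, the log2 read ratio of the combined treatment to vehicle was -0.37. The cause of these shifts was not tested. Depth limits TUBB2A, TUBB2B and TUBB6.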
